A study of Mus musculus with 11 samples.

Results

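The nuclear genes of the respiratory chain and the ATP synthase were followed in mouse cells cultured for 5 days in high glucose with added Hsp70, in high glucose alone or in normal glucose. Members were all rows whose symbol names a subunit of complex I (Ndufa, Ndufb, Ndufc, Ndufs, Ndufv, and the Ndufaf assembly factors), complex II (Sdha to Sdhd), complex III (Uqcr), complex IV (Cox4 to Cox8) or complex V (Atp5), provided that 3 libraries or more reached a normalized count of 1. By symbol 92 rows qualified, and 91 passed that minimum, of 18248 genes tested and 23238 symbols in all. The one that did not pass was Cox8c, a complex IV isoform. The 91 members comprised 38 complex I genes, 7 complex I assembly factors, 4 genes of complex II, 8 of complex III, 17 of complex IV and 17 of complex V. The symbols decided the complex, so Ndufa4 stands with complex I although its protein is now counted to complex IV, and Cox7a2l, a supercomplex assembly factor, stands with complex IV. RefSeq names Atp5sl Dmac2 and Atp5s Dmac2l, so their place with complex V rests on the deposited symbols alone.

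The respiratory chain passes electrons from NADH (complex I) and succinate (complex II) through complexes III and IV to oxygen, and pumps protons out of the mitochondrial matrix as it does so. The ATP synthase, complex V, lets the protons back in and makes ATP. Most subunits are encoded in the nucleus, and a few core subunits of complexes I, III, IV and V in the mitochondrial genome. The mitochondrial genes were not analysed here. Endothelial cells in culture are known to make much of their ATP by glycolysis. Several small complex IV subunits exist as a widely expressed form and as a form with a narrower range, such as Cox6a2, Cox7a1 and Cox8b in heart and skeletal muscle.

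The 11 RNA sequencing libraries fell into 3 groups. High glucose with Hsp70, a heat shock chaperone, had 4 libraries, high glucose had 4 and normal glucose had 3. No allele, strain or age is given. The labels name the cells mouse cavernous endothelial cells, from corpus cavernosum, the erectile tissue of the penis, and all 3 groups were grown in medium 199 with serum and heparin. Neither the glucose concentrations nor the form and dose of Hsp70 are given there. The series title names cystathionine gamma-lyase and recovery of erectile function by Hsp70 as its subject. The deposited files carry a set number: set 2 consisted of an Hsp70 and a high glucose library, and sets 3, 4 and 5 had all 3 groups, with 1 library from each. What a set was is not stated. Values are log2(normalized count + 1). The sum over all symbols lay at 24.8 to 27.8 M normalized counts per library, of which the members took 0.644% to 0.901%. Nothing says that replicates were separate animals, so every p measures the spread between these libraries, which may be technical.

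In the 6 libraries of sets 4 and 5 the same 11.85% of all symbols stood at 0 and a further 12.14% to 14.7% held a fraction of a count below 0.5. In the 5 libraries of sets 2 and 3, 21.16% to 25.86% stood at 0 and at most 0.06% held such a fraction, so low values were handled differently in these files before deposit. The markers of the labelled cell type were low. The summed normalized count of 12 endothelial genes was 1970 to 2160 in set 3 and 345 to 543 in the other sets, against 335000 to 411000 in set 3 and 164000 to 266000 in the other sets for 10 fibroblast genes. Pecam1, the endothelial adhesion receptor CD31, had log2 values of 8.86 to 9.07 in set 3 and of 2.68 to 4.51 elsewhere. Cldn5, a junction protein of endothelial cells, lay between 0 and 0.24 outside set 3. Not all of the 12 parted so. Tek had 5.22 to 5.89 in set 3 and 5.09 to 6.44 elsewhere, and Egfl7 had 7.53 to 7.95 and 6.69 to 7.73.

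Promoter sequences are shown for complex IV subunits with a narrow and a widely expressed form, since their levels parted most between the libraries. Cox4i2, Cox4i1 and Cox6a2 had no promoter entry in the source used, so Cox6a1 is shown without its narrow form. Cox7b2 and Cox7b are not shown. Promoters were taken from RefSeq (GRCm38.p6), which held 82 windows of 250 bases before the transcript start for 76 of the 91 members. In these windows 4 motifs were searched on both strands: GCGCA and GCGC with any 1 base between them, of the nuclear respiratory factor NRF1, CGGAAG, the core bound by ETS factors such as GABP, ACGTG, the core of hypoxia response elements, and CAGCTG, an E-box of muscle regulators. The stretches below end before the gene body annotated by GENCODE as well, and capitals mark motif matches. Cox6b2 lies at chr7:4753095-4753344 on the minus strand, Cox6b1 at chr7:30626152-30626364 on the minus strand, Cox7a1 at chr7:30183921-30184143 on the plus strand and Cox7a2 at chr9:79759879-79760103 on the minus strand. Cox8b lies at chr7:140900447-140900696 on the minus strand, Cox8a at chr19:7217617-7217866 on the minus strand and Cox6a1 at chr5:115348982-115349208 on the minus strand.
Cox6b2: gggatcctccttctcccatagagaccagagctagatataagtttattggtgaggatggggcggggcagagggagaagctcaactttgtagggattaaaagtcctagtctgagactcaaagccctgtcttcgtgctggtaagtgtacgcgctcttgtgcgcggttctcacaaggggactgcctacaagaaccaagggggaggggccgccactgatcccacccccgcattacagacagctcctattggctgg
Cox6b1: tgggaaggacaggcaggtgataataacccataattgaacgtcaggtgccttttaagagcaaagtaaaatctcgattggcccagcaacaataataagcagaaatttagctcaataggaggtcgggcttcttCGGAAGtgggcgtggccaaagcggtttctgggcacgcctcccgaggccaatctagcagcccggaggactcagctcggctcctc
Cox7a1: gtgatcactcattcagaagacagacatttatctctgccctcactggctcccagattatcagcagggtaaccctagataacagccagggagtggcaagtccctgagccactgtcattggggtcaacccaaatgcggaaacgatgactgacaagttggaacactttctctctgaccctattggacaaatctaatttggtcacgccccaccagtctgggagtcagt
Cox7a2: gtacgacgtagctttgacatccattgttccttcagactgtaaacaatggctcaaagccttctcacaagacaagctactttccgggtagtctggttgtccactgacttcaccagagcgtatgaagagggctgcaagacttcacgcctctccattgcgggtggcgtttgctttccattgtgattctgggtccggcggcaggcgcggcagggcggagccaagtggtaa
Cox8b: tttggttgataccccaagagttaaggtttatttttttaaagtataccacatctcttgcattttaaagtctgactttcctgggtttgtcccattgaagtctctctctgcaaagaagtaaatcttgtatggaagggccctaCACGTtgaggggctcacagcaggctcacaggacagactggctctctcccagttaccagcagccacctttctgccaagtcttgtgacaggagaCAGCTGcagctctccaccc
Cox8a: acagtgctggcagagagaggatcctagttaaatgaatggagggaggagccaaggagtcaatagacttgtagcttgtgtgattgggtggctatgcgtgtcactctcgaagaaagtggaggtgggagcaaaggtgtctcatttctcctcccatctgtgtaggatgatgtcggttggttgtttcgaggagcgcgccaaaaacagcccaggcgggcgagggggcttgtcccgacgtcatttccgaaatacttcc
Cox6a1: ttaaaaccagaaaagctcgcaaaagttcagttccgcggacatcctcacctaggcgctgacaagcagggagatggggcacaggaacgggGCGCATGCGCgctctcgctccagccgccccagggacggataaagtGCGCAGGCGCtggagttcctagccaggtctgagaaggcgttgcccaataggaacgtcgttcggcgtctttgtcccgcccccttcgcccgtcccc
The stretch of Cox6a1, a widely expressed form, held 2 NRF1 matches, and that of Cox6b1 held 1 ETS match. In the stretches of Cox6b2 and Cox7a1 none of the 4 motifs matched, and the same was true of the widely expressed Cox7a2 and Cox8a. The windows of Cox7b2 and Cox7b, which are not shown, held none of the 4 either. The Cox8b stretch held the ACGTG core and the E-box.

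Across the members the NRF1 motif was found in 15 of 82 windows (18.3%), against 3.74% of 32851 windows of all genes, and the ETS core in 27 (32.9%), against 13.6%. The ACGTG core was present in 19 windows (23.2%), against 16.6%, and the E-box in 6 (7.32%), against 13%. Windows of members were also richer in G and C, with a median of 56.8% against 52.4%. Windows with an NRF1 match belonged to 7 of 35 complex I windows, 4 of 20 of complex V, 2 of 3 of complex II, 1 of 13 of complex IV, 1 of 6 of the assembly factors and 0 of 5 of complex III. Ndufb4 and Sdha held 3 matches each. A match describes these letters and is no evidence of binding.

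Levels between genes can be compared only per length, and are given as the median normalized count per kilobase of annotated transcript over the 11 libraries. Complex V genes were the highest, with a median of 3800 over 16 genes with a length, followed by 1630 for complex III, 1610 for complex I, 1490 for complex IV and 1150 for complex II. The complex I assembly factors had a median of 135. The highest single gene was Atp5h, the d subunit in the stalk of the ATP synthase, at 16600 (12700 to 22600 over libraries). Next came Cox6c, a small subunit of complex IV, at 12400, and Atp5b, the catalytic beta subunit, at 9430. Atp5j, coupling factor 6, had 7910 and Cox8a 7330. The ranges of these neighbours overlapped. The lowest were 5 complex IV isoforms of narrow range: Cox6a2 at 1.4, Cox8b at 5.42, Cox7b2, a testis form, at 5.68, Cox7a1 at 17.5 and Cox4i2, a form known from lung and from hypoxia, at 45.1. Complex IV thus spanned 1.4 to 12400, against 697 to 7020 in complex III and 521 to 2120 in complex II.

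**Figure D1:**
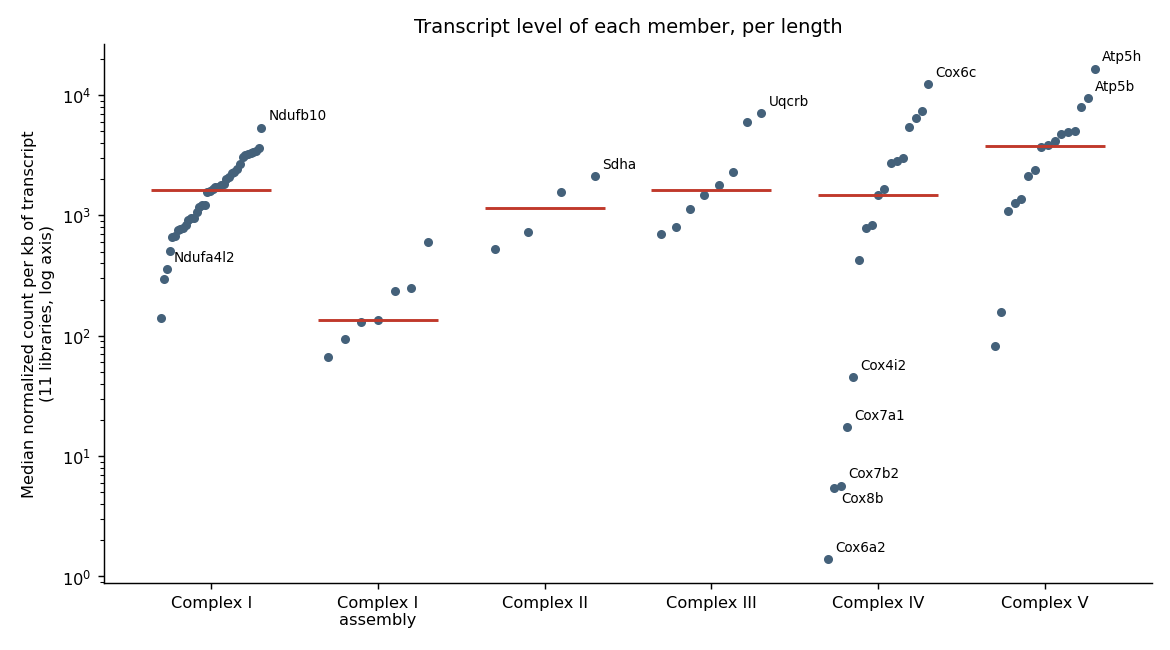
Median normalized count per kilobase of transcript over the 11 libraries (log axis) for each member with an annotated length, 1 point per gene, by complex; red lines are the medians of the complexes. Complex V has the highest median, 3800, and the lowest points are the complex IV isoforms Cox6a2, Cox8b, Cox7b2, Cox7a1 and Cox4i2.

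The median log2 level of the 91 members stayed within 10.05 to 10.61 in all 11 libraries. It was 10.39, 10.36, 10.61 and 10.05 in the Hsp70 libraries of sets 2, 3, 4 and 5. In high glucose it was 10.22, 10.41, 10.37 and 10.08 in the same sets, and in normal glucose 10.42, 10.41 and 10.11 in sets 3, 4 and 5. The 3 libraries of set 5 were the lowest of all, whatever the group. Set 5 had the lowest mean for 65 of the 91 members (71.4%), against 22.7% of all genes tested, and the highest for 3 (3.3%), against 27.9%. The members' share of the counts was also lowest there. The median of complex IV equals the value of 1 gene, Cox7c, in every library, so the complexes are compared gene by gene within sets below.

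**Figure D2:**
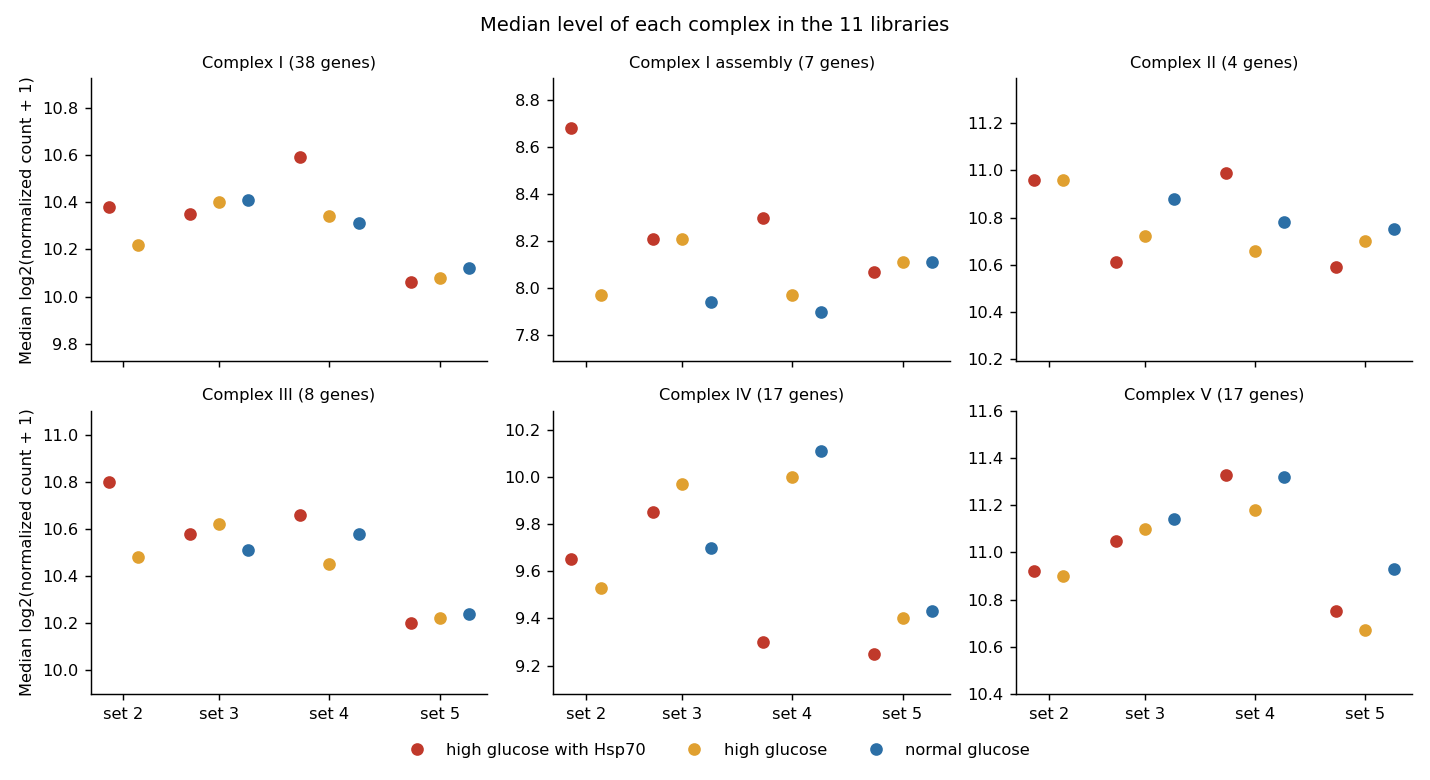
Median log2(normalized count + 1) of the members of each complex in the 11 libraries, by file set; red is high glucose with Hsp70, yellow high glucose and blue normal glucose, and all panels span the same log2 range. Within each of the 3 groups, set 5 is the lowest for complexes I, III and V; the complex IV points are the values of Cox7c.

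Within sets, 2 libraries stood apart from their set mates. In set 4, 29 members (31.9%) differed by over 0.5 log2 between Hsp70 and high glucose and 28 (30.8%) between Hsp70 and normal glucose, but 6 (6.59%) between high and normal glucose. In set 3, 13 members (14.3%) differed by that much between high and normal glucose and 15 (16.5%) between Hsp70 and normal glucose, but 2 (2.2%) between Hsp70 and high glucose. In sets 2 and 5 every such count was 4 or 5. The libraries concerned were thus Hsp70 of set 4 and normal glucose of set 3. All genes behaved likewise: 44.5% of them differed by over 0.5 log2 between Hsp70 and high glucose in set 4, against 19.1% in set 3. The cause was not tested, and neither was whether the group and set labels of these 2 libraries are right; if one were not, every group difference that uses it would change its meaning. The main counts of each comparison are given with and without them.

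Ndufb4, an accessory subunit in the membrane arm of complex I, shows the pattern. It had 11.88, 10.9, 11.67 and 11.52 in the Hsp70 libraries of sets 2 to 5, 11.61, 10.86, 10.68 and 11.4 in high glucose, and 11.71, 10.91 and 11.69 in normal glucose of sets 3 to 5. Hsp70 of set 4 lay 0.99 above high glucose of that set, and in set 3 high glucose minus normal glucose was -0.85. Ndufc1, another small membrane arm subunit, went the other way. Its values were 8.88, 10.1, 8.97 and 8.25 with Hsp70, 9.03, 10.23, 9.72 and 8.76 in high glucose, and 9.32, 10.12 and 8.6 in normal glucose. Ndufa12, which sits beside the iron-sulphur arm, had 10.77, 11.54, 10.87 and 10.56 with Hsp70, 10.88, 11.61, 11.57 and 10.64 in high glucose, and 10.92, 11.64 and 10.69 in normal glucose. In each of the 3 genes the Hsp70 and high glucose libraries of set 3 and the high and normal glucose libraries of set 4 lay on one side and the other 7 on the other, with no overlap. The same 4 libraries failed to overlap the other 7 in 20 of 91 members (22%), against 5.61% of all genes tested and 9.03% of genes with a mean log2 value of at least 8. Since the libraries were picked from these values, this is a description with no test.

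Of the 20, the 4 libraries were higher in 13 (Ndufa3, Ndufa5, Ndufa7, Ndufa12, Ndufb3, Ndufb8, Ndufc1, Ndufs8, Ndufaf2, Sdhd, Cox7a2, Cox7c and Atp5g3) and lower in 7 (among them Ndufb4, Ndufb10, Uqcrb, Cox6c, Atp5h and Atp5f1). Subunits of the same complex thus lay on opposite sides: Ndufs8, a core subunit that carries iron-sulphur clusters, and Ndufb10, an accessory subunit of the membrane arm, both belong to complex I. Near-identical pseudogene copies, which can take reads from a gene, were found for 5 of the 7 lower genes, 3 of the 13 higher ones and 23 of 70 others. A pseudogene was counted where it matched over at least 200 bases at 90% identity or more. How reads that fit several places were counted is not given in the sources used here, so the values of these genes are uncertain.

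**Figure D3:**
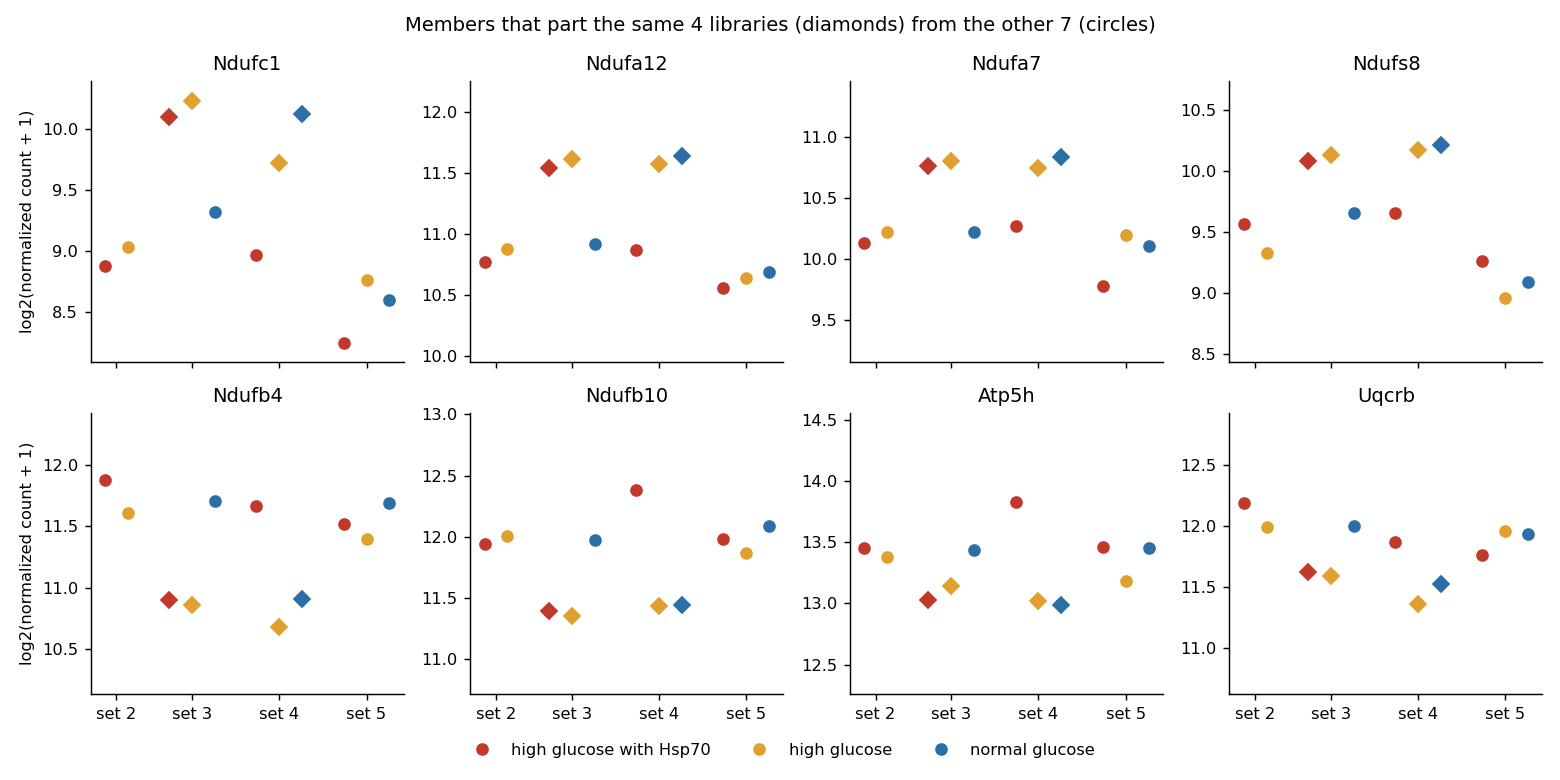
log2(normalized count + 1) of 8 members in the 11 libraries, by file set, with equal log2 spans; red is high glucose with Hsp70, yellow high glucose and blue normal glucose. Diamonds mark the Hsp70 and high glucose libraries of set 3 and the high and normal glucose libraries of set 4, which lie above the other 7 (circles) in the upper row and below them in the lower row.

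With Hsp70 against high glucose alone, no member passed an adjusted p of 0.05 in limma with the file set as a term, and neither did any other gene (0% called). At an unadjusted p of 0.05, 0 of 91 members passed, against 1.67% of genes. Of the members, 54 lay above 0 (50.7% of all genes did), with a median log2 difference of 0.022, against 0.003 over all genes. The median standard error of a member was 0.135. The set medians were 0.035, -0.055, 0.234 and -0.088 in sets 2 to 5, so that the set 4 pair with the Hsp70 library that stood apart gave the highest. Without the 2 libraries that stood apart, 39 members (42.9%) lay above 0, against 53.1% of all genes, and again 0% of genes were called. At an unadjusted p of 0.05, 1 of 91 members passed there, against 6.13% of genes.

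In complex I, the largest differences were in Ndufb4 (0.35 ± 0.21, SE, limma adjusted p = 0.999) and Ndufc1 (-0.38 ± 0.253, adjusted p = 0.999), for which the values of all libraries are given above. Among the complex I assembly factors they were in Ndufaf3 (0.28) and Ndufaf2 (-0.25), and in complex III in Uqcrc1, a core subunit (0.21), and Uqcr10 (-0.06). In complex V they were in Atp5h (0.26) and Atp5sl (-0.22). In complex IV, Cox5b, a structural subunit, had 0.18 and Cox4i2, the isoform known from hypoxia, -0.49 ± 0.474 (adjusted p = 0.999). Leaving out the 2 libraries that stood apart, the difference of Cox4i2 was -0.99 ± 0.357 (limma adjusted p = 0.705), while Ndufb4 had 0.14 and Ndufc1 -0.22. Cox4i2 had 3.41, 7.44, 6.2 and 4.17 with Hsp70 in sets 2 to 5, and 4.83, 7.25, 5.08 and 6.01 in high glucose. It was thus lower with Hsp70 in sets 2 and 5 and higher in sets 3 and 4, and the set 4 Hsp70 library is one of the 2 left out. Complex II ran between 0.05 for Sdha, the flavoprotein that oxidises succinate, and -0.12 for Sdhd, one of its membrane anchors. In every one of the 4 sets, 4 members were higher with Hsp70 (Atp5s, Ndufb4, Ndufa9 and Ndufb7; 4.4%, against 3.89% of all genes) and 9 were lower (9.89%, against 4.42% of all genes and 3.08% of genes with a mean log2 value of at least 8). The 9 were Ndufa3, Ndufa6, Ndufa7, Ndufa12, Ndufc1, Ndufaf2, Sdhd, Cox7a2 and Atp5g3, and 8 of them are among the 13 genes of the library divide. In set 5, 0 of the 17 complex IV genes were higher with Hsp70 than in high glucose, with a median of -0.18. In that set 26 of 91 members were higher, among them 0 of 4 of complex II, against 9518 of 18248 genes tested. In sets 2, 3 and 4 complex IV had medians of -0.02, -0.06 and 0.3.

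With Hsp70 against normal glucose, again 0% of genes and no member passed the adjusted threshold. Of the members 37 lay above 0, against 50% of genes, with a median of -0.039 and set medians of -0.06, 0.113 and -0.163 in sets 3, 4 and 5. At an unadjusted p of 0.05, 2 of 91 members passed, against 3.22% of genes. One was Ndufaf5, an assembly factor of complex I, with a difference of 0.45 ± 0.185 (SE, limma adjusted p = 1). It had 8.69, 8.37, 8.3 and 8.07 with Hsp70 and 7.94, 7.56 and 8.11 in normal glucose, and the set 5 pair differed little. The other was Cox8b, at -1.66 ± 0.615 (adjusted p = 1), with 0, 3.46, 0 and 0.05 with Hsp70 and 3.45, 2.65 and 1.78 in normal glucose. The groups overlapped in both. Ndufv1, Uqcrc2 and Ndufaf3 were higher in all 3 sets (3.3% of members, against 7.62% of genes). Uqcr11, Atp5g2, Ndufaf6 and Cox6a2 were lower in all 3 (4.4%, against 9.92%). In sets 4 and 5 Cox6a2 lay near 0, at 0.01 and 0.1 with Hsp70 and 0.11 and 0.3 in normal glucose. Its fitted difference was 0.28 ± 0.832, so its sign is uncertain. Per complex, the highest and lowest differences were 0.15 (Ndufv1) and -0.2 (Ndufc1) in complex I, 0.06 (Sdha) and -0.14 (Sdhd) in complex II, and 0.15 (Uqcrc1) and -0.24 (Uqcr10) in complex III. They were 0.06 (Cox5a) and -0.26 (Cox7a2) in complex IV, 0.12 (Atp5g1) and -0.16 (Atp5g2) in complex V, and 0.45 (Ndufaf5) and -0.38 (Ndufaf6) among the assembly factors, leaving out genes with a mean log2 value under 5. With the 2 libraries that stood apart left out, only set 5 still held both groups. In that fit 79 of 91 members (86.8%) lay below 0, against 47.7% of all genes, and 0% of genes were called. At an unadjusted p of 0.05, 9 of 91 members (9.89%) passed there, against 7.96% of genes.

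In high glucose against normal glucose, no member and no other gene passed (0%), and at an unadjusted p of 0.05 the count was 0 of 91 members, against 3.49% of genes. Of the members 29 lay above 0, against 49.5% of genes, and the median was -0.06, against -0.002 over all genes. The set medians were -0.045, -0.112 and -0.06 in sets 3, 4 and 5. The median standard error of a single member was 0.151. In all 3 sets 27 members were lower in high glucose (29.7%), against 14.3% of all genes and 16.5% of genes with a mean log2 value of at least 8. They were 12 of 38 genes of complex I, 3 of 7 assembly factors, 2 of 4 genes of complex II, 0 of 8 of complex III, 4 of 17 of complex IV and 6 of 17 of complex V. In complex III 7 of the 8 fitted differences were below 0 all the same, with a median of -0.07. In all 3 sets 3 members were higher: Atp5sl, Cox6a2 and Ndufa1 (3.3%, against 11.3%). Cox6a2 lay near 0 in set 4, at 0.21 in high glucose and 0.11 in normal glucose, so its sign there is uncertain. Without the 2 libraries that stood apart, only sets 4 and 5 still held both groups. In that fit 77 members (84.6%) lay below 0, and their median was -0.095. The share below 0 was 51.9% of all genes and 56.4% of genes with a mean log2 value of at least 8. None of the members passed there, and 1 gene of 18248 did (0.00548%). At an unadjusted p of 0.05, 9 of 91 members (9.89%) passed there, against 8.09% of genes.

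Atp5b, the catalytic subunit of the ATP synthase, had the lowest difference of complex V. It had 14.47, 14.01, 13.88 and 14.14 in high glucose of sets 2 to 5, and 14.32, 14.11 and 14.35 in normal glucose of sets 3 to 5. High glucose was lower in each of the 3 sets with both groups, but the ranges of the groups overlapped. The fitted difference was -0.25 ± 0.173 (SE, limma adjusted p = 1). Ndufb9, an accessory subunit of complex I, differed by -0.21, -0.2 and -0.23 in sets 3, 4 and 5, and had a fitted difference of -0.2 ± 0.115 (adjusted p = 1). The lowest fitted difference in complex I was that of Ndufb4 (-0.44 ± 0.235, adjusted p = 1), where set 3 alone gave -0.85, and the highest that of Ndufc1 (0.18). In complex IV, Cox4i2 had 0.26 and Cox5b -0.22, and in complex V the highest was Atp5sl (0.13). Uqcrc2 and Uqcrb of complex III had 0.03 and -0.19, Sdhc of complex II -0.15, and the assembly factors Ndufaf5 and Ndufaf6 0.19 and -0.27. Of the other core subunits, Ndufs1 had -0.06, Ndufv1 0.03, Sdha 0.01, Sdhb -0.07, the Rieske protein Uqcrfs1 -0.05, Uqcrc1 -0.06 and Atp5a1 -0.11. Cox8b, one of the lowest members per kilobase, had -1.33 ± 0.615 (adjusted p = 1).

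**Figure D4:**
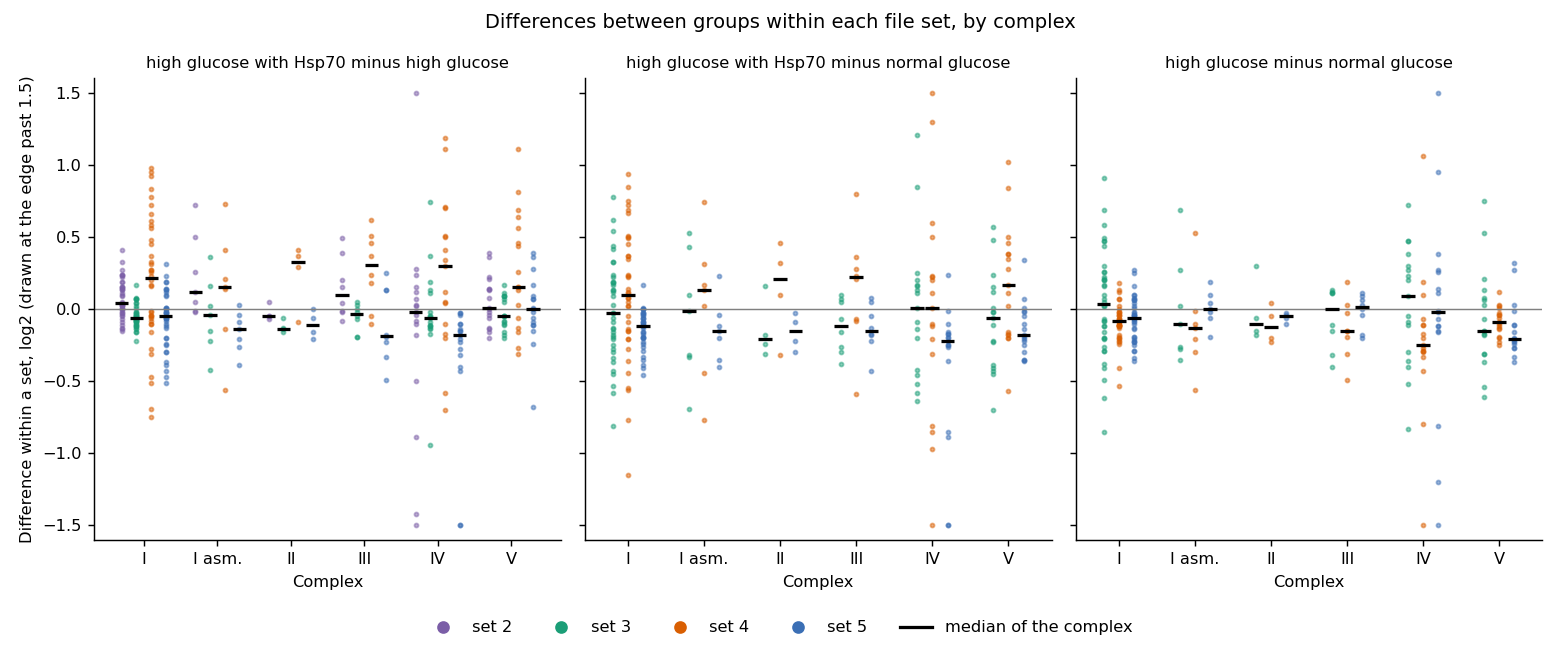
Log2 difference of each member within each file set, by complex, for high glucose with Hsp70 minus high glucose (left), high glucose with Hsp70 minus normal glucose (middle) and high glucose minus normal glucose (right); 1 point per gene and set, black bars are medians of a complex in a set, and values past 1.5 are drawn at the edge. The set 4 points of the left and middle panels spread most, with a complex IV median of 0.3 in the left panel, whereas most medians of the right panel lie at or below 0.

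Related genes outside the complexes also had no calls between groups. The genes that could be tested were 36 assembly factors of complexes II to V. Next were 14 of 15 listed electron carriers, adenine nucleotide exchangers and related mitochondrial proteins. Then came 20 of 21 regulators of mitochondrial biogenesis, 13 citric acid cycle genes, 60 mitochondrial ribosomal protein genes and 18 hypoxia response genes. None of them passed in any of the 3 comparisons. For high against normal glucose the medians of these lists were -0.08, -0.031, -0.096, -0.097, -0.03 and -0.091 in that order. For Hsp70 against high glucose they were 0.016, -0.032, 0.003, 0.07, 0.067 and -0.082. Chchd10, a mitochondrial protein of the intermembrane space, had the lowest unadjusted p of the electron carrier list in high against normal glucose. It had 6.45, 7.16, 4.77 and 5.91 in high glucose and 7.94, 6.55 and 7.26 in normal glucose, a difference of -1.46 ± 0.407 (limma adjusted p = 1). It was lower in high glucose in each of the 3 sets.

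Some members differed between the file sets. With the groups in the model, 11 of 91 members differed among the 4 sets at an adjusted p of 0.05 in limma, against 11.9% of all genes, a share near that of the members (12.1%). They were Ndufa2, Ndufa3, Ndufa4l2, Ndufc1, Ndufs8, Ndufaf4, Uqcr11, Uqcrq, Cox4i2, Cox6a2 and Cox6b2. Of these, Cox6a2 met the minimum count only through the libraries of set 3, so its call was tied to the filter. Leaving out any 1 of the 11 libraries moved this count. It was lowest, 1, without the high glucose library of set 3 or the normal glucose library of set 5, against 3.36% and 5.76% of all genes. It was highest, 40, without the Hsp70 library of set 4, against 28.5%. Without the 2 libraries that stood apart it was 53 (58.2%), against 33.8% of all genes. Of genes with a mean log2 value of at least 8, 47.4% were called there. Sets 4 and 5 alone gave 0, with 28 members (30.8%) at an unadjusted p of 0.05, against 11.9% of genes. Sets 2, 4 and 5 gave 0 as well, with 26 members (28.6%) at that p, against 17.3% of genes.

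Of these 11, Ndufa3, Ndufa4l2, Cox4i2, Cox6a2 and Cox6b2 also differed between set 3 and the rest. Against the mean of the other sets 8 members rose at an adjusted p of 0.05 and none fell, where 12.7% of all genes were called, 8.21% higher and 4.48% lower. This contrast was chosen with earlier results of these data known, so its adjusted p values, here and below, are no independent test. One of the 8, Cox6a2, met the minimum count only through the libraries of set 3, so that its call was fixed by the filter. Of the 90 members that met it without them 7 passed, against 12.2% of such genes. Without the 2 libraries that stood apart 25 members (27.5%) passed, 22 higher and 3 lower. The share there was 19.8% of all genes and 24.8% of genes with a mean log2 value of at least 8. Without the Hsp70 library of set 3 the member count was 4, against 6.65% of genes, and without its high glucose library 3, against 5.29%. Without the Hsp70 library of set 4 it was 14, against 20.8%. Since low values were handled differently in sets 4 and 5, set 3 was also compared with set 2 alone, where 6 members passed (5 higher and Ndufaf4 lower), against 10.9% of all genes.

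Of the 8, 6 were isoforms with a restricted range of tissues. Another such isoform, the testis form Cox7b2, was not among them. It had 2.03, 1.29 and 0.82 in set 3 with Hsp70, in high glucose and in normal glucose, and 1.07 to 3.33 in the other sets, which overlapped it, at a difference of -0.78 ± 0.516 (limma adjusted p = 0.401).

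Ndufa4l2, a hypoxia-inducible relative of Ndufa4 (chr10:127514967-127517154), had 10.29, 10.41 and 10.49 in set 3 with Hsp70, in high glucose and in normal glucose. Elsewhere it had 7.99, 8.99 and 7.93 with Hsp70, 8.12, 8.33 and 8.32 in high glucose, and 8.86 and 8.39 in normal glucose. Set 3 lay above all other libraries without overlap, at 2.04 ± 0.156 (SE, limma adjusted p = 5.25e-05), and 2.27 above set 2 alone (adjusted p = 0.000288). Taken per kilobase, Ndufa4l2 made up 44.6% to 46.6% of the sum of Ndufa4l2 and Ndufa4 in set 3 and 11.4% to 24.2% in the other sets.

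Cox4i2 (chr2:152754173-152765037), the form of subunit 4 known for its response to low oxygen, had 7.44, 7.25 and 8.08 in set 3 with Hsp70, in high glucose and in normal glucose. The other libraries had 3.41, 6.2 and 4.17 with Hsp70, 4.83, 5.08 and 6.01 in high glucose, and 4.9 and 5.06 in normal glucose. The groups of libraries did not overlap, and the difference was 2.72 ± 0.459 (adjusted p = 0.00422 in limma). Against set 2 alone it was 3.47 (adjusted p = 0.00864). Its share of the pair with Cox4i1 per kilobase was 2.75% to 5.46% in set 3 and 0.203% to 1.69% in the others, so Cox4i1 remained the main form in all libraries.

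Cox6b2 (chr7:4751792-4753094), known as the testis form of subunit 6b, had 8.81, 8.7 and 8.61 in set 3 in the same order. In the other sets it had 7, 7.75 and 7.19 with Hsp70, 7.89, 7.34 and 7.62 in high glucose, and 7.64 and 7.36 in normal glucose. The difference was 1.23 ± 0.194 (limma adjusted p = 0.00278), and 1.27 against set 2 alone (adjusted p = 0.0161). Cox6b2 held 20.7% to 23.6% of the pair with Cox6b1 per kilobase in set 3, and 8.55% to 14.5% elsewhere. Cox7a1 (chr7:30184144-30186078), the heart and muscle form of subunit 7a, had 5.06, 4.93 and 4.22 in set 3. Elsewhere it ran between 2.27 and 3.92, at a difference of 1.85 ± 0.409 (adjusted p = 0.0163) and of 2.29 against set 2 alone (adjusted p = 0.0311). Without the Hsp70 library of set 3 the difference was 1.47 (adjusted p = 0.139), and without the high glucose library of set 3 it was 1.63 (adjusted p = 0.147), so the call was lost.

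The other 2 muscle forms were the lowest members per kilobase. Cox6a2 (chr7:128205435-128206387) had 4.51, 5.44 and 4.97 in set 3 with Hsp70, in high glucose and in normal glucose. In the other sets it had 4.21, 0.01 and 0.1 with Hsp70, 0.96, 0.21 and 2.14 in high glucose, and 0.11 and 0.3 in normal glucose. The value of the Hsp70 library of set 2 came close to set 3. The fitted difference was 3.82, and 2.48 against set 2 alone; no test is given, since only 2 libraries outside set 3 reached the minimum count. Cox8b (chr7:140898945-140900446) had 3.46, 3.09 and 3.45 in set 3. It lay between 0 and 1.56 in the other Hsp70 and high glucose libraries, and at 2.65 and 1.78 in normal glucose of sets 4 and 5. Its difference of 2.39 ± 0.533 (adjusted p = 0.0171) was 2.05 against set 2 alone (adjusted p = 0.114), 1.82 without the Hsp70 library of set 3 (adjusted p = 0.144) and 2.33 without its high glucose library (adjusted p = 0.119). The fitted folds of these low genes depend on how values near 0 were made, which differed between the files.

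The widely expressed partners of these isoforms did not pass. Set 3 minus the mean of the others was 0.16 for Cox4i1, 0.06 for Cox6a1, 0.09 for Cox6b1, 0.15 for Cox7a2, -0.01 for Cox8a, -0.05 for Cox7b and 0.12 for Ndufa4, with standard errors of 0.104 to 0.16. Without the 2 libraries that stood apart Cox4i1 did pass, at 0.27 (adjusted p = 0.038). The other 2 members that rose were small accessory subunits of complex I: Ndufa1 by 0.41 ± 0.101 (limma adjusted p = 0.0273) and Ndufa3 by 0.47 ± 0.128 (adjusted p = 0.0414). Ndufa1 had 9.31, 9.35 and 9.18 in set 3 with Hsp70, in high glucose and in normal glucose, above the 8.75 to 9.07 of the others, whereas Ndufa3 (10.36, 10.48 and 10.04) overlapped them. Against set 2 alone, Ndufa3 passed and Ndufa1 did not (adjusted p = 0.0421 and 0.0855). Of the core subunits Ndufs1, Ndufv1, Sdha, Sdhb, Uqcrfs1, Uqcrc1, Atp5a1 and Atp5b none passed, with differences between -0.25 (Atp5b) and 0.24 (Ndufv1).

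**Figure D5:**
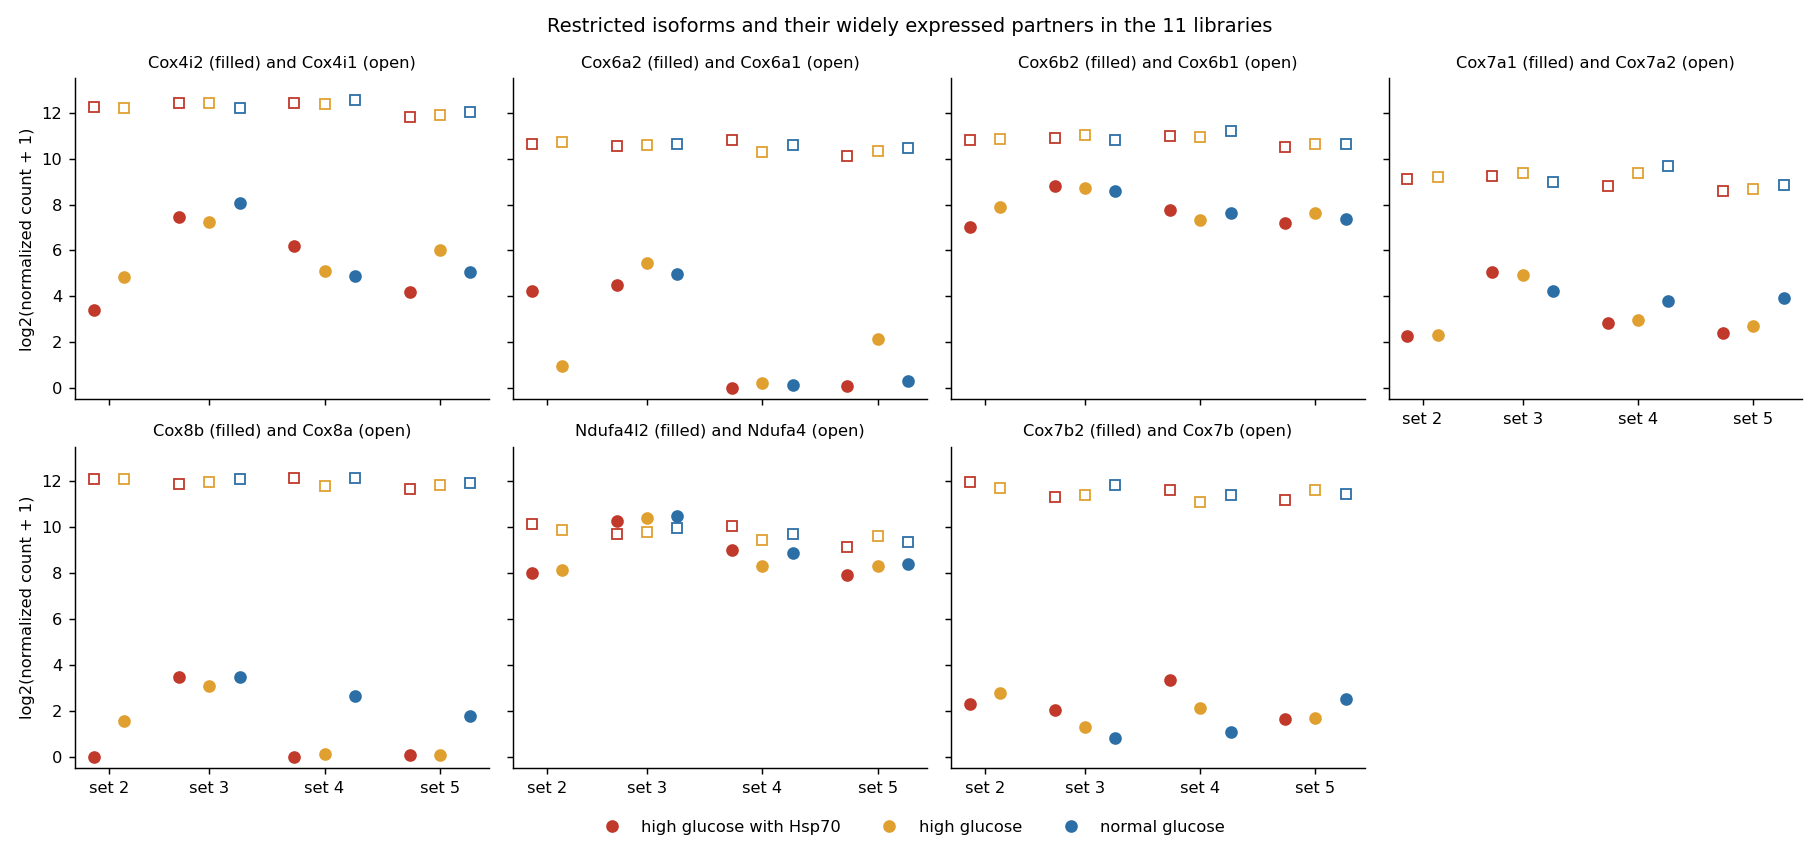
log2(normalized count + 1) of 7 restricted isoforms (filled circles) and their widely expressed partners (open squares) in the 11 libraries, by file set; red is high glucose with Hsp70, yellow high glucose and blue normal glucose. The filled points of set 3 lie above those of the other sets in 6 panels, with the Hsp70 library of set 2 close to them for Cox6a2, but not for Cox7b2; per kilobase, Ndufa4l2 made up 44.6% to 46.6% of its pair in set 3.

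Other genes moved with set 3 beside these isoforms. Leaving out Cldn5 and the macrophage gene Tyrobp, which met the minimum count only through set 3, 10 of 11 endothelial markers were higher in set 3, of 8 leukocyte markers 7, of 6 Schwann cell markers 4, of 10 fibroblast markers 5, and of 10 smooth muscle and pericyte markers 5 were higher and 1 lower. Summed counts of set 3 and the other sets were 4750 to 5620 and 533 to 871 for the leukocyte list, 3520 to 7390 and 951 to 2510 for the Schwann cell list, and 6590 to 7500 and 3520 to 4760 for the smooth muscle and pericyte list. The pericyte genes Kcnj8 and Rgs5 had differences of 2.05 and 3.34 (limma adjusted p = 1.47e-05 and 3.3e-05), while Cspg4, another, had -1.6 (adjusted p = 3.04e-05). Fewer cells of a type and less RNA per cell cannot be told apart in such bulk samples, and the part of these cell types in the isoform differences was not tested. Cox6a2 overlaps the leukocyte integrin gene Itgad on the other strand. Itgad itself was higher in set 3, by 2.91 ± 0.553 (adjusted p = 0.00768), with 3.97, 4.4 and 4.5 there and 0.07 to 2.92 elsewhere. Whether reads were counted by strand is not given in the sources used here. Reads of Itgad may thus stand in the count of Cox6a2, which was not tested. The values were not the same in all libraries. In the Hsp70 library of set 2 Cox6a2 had 4.21 and Itgad 1.96. In set 4, with Hsp70, in high glucose and in normal glucose, Cox6a2 had 0.01, 0.21 and 0.11, and Itgad 1.59, 1.76 and 1.09. Ndufa4l2 overlaps Shmt2 on the other strand, which did not pass (-0.38, adjusted p = 0.46).

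Of the hypoxia response genes, 8 of 18 passed in set 3, 7 higher and 1 lower, against 12.7% of all genes. Car9, a carbonic anhydrase of hypoxic cells, had 8.92, 8.62 and 8.76 in set 3 and 5.85 to 7.05 elsewhere, a difference of 2.35 ± 0.16 (limma adjusted p = 3.01e-05). Ndrg1 rose by 0.91 and Higd1a, which binds complex IV, by 0.86 (adjusted p = 0.000792 and 0.00238). Slc2a1, the main glucose transporter of many cultured cells, was the one that fell, by 0.52 (adjusted p = 0.0204). Of the assembly factors 3 of 36 passed, with Pet100 and Cox20, both needed for complex IV, higher (0.55 and 0.49, adjusted p = 0.00454 and 0.0228) and Lrpprc, which stabilises mitochondrial messenger RNA, lower (-0.72, adjusted p = 0.0088). Of 20 biogenesis regulators the coactivator Ppargc1b (-1.64, adjusted p = 0.027) and the deacetylase Sirt1 (-0.38, adjusted p = 0.0369) fell. In the list of electron carriers, exchangers and related proteins, Higd1a and Higd2a rose. Of the citric acid cycle genes 0 of 13 passed, and of the mitochondrial ribosomal proteins 1 of 60, Mrpl33 (0.51, adjusted p = 0.0157).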

How the data were processed

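The 11 RNA sequencing libraries (4 high glucose with Hsp70, 4 high glucose, 3 normal glucose) were analysed from the deposited values, 1 file per library. A SMARTer stranded kit was used for the libraries, per the labels' protocols, and TopHat, edgeR and mm10 are listed, with no versions, per the submitters' processing notes. The deposited values are in log2 units, read as log2(normalized count + 1). How the authors normalized, which annotation and strand setting they used and how they counted reads with several matches is not stated in the labels. In sets 2 and 3 the steps of the low values put 1 read at 0.798 to 0.977 normalized counts, and the reads behind a library at 27.7 to 31.5 M; sets 4 and 5 keep no such steps, so their depth is unknown.

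Of 23282 rows, 44 repeated symbols were dropped, the copy with the highest mean being kept. The 18248 genes that reached a normalized count of 1 in 3 libraries or more were fitted with limma 3.58.1 in R 4.3.3 (trended, robust), with group means and the file set as a term, and adjusted by Benjamini-Hochberg at 0.05. The members, the gene lists and the contrast of set 3 with the other sets were chosen with earlier results of these data known. The fit was checked on simulated data. Lengths and positions came from GENCODE M21 (mm10), which matched 90 of 91 members (not Atp5sl), and 32 of them overlap a gene on the other strand. Pseudogenes were searched with BLAST 2.17.0, and Python 3.11.15 with matplotlib 3.10.9 made the figures.

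The file names number the sets. Taking out group means, libraries of one set correlated at 0.422, 0.691, 0.0586 and 0.262 (Hsp70 and high glucose, sets 2 to 5), 0.458, 0.0219 and 0.372 (Hsp70 and normal glucose, sets 3 to 5) and 0.594, 0.302 and 0.285 (high and normal glucose). By title number the high and normal glucose libraries gave -0.224, -0.357 and 0.137. The set is a term because the comparison was asked within sets; not every pair was above 0.1. Genes were named by rule: members that passed; per complex the highest and lowest difference among those with a mean log2 value of at least 5; core subunits and isoform pairs; the 6 largest rises and falls among members that passed in set 3; the 5 highest and lowest levels; and up to 3 genes per list by smallest unadjusted p. Ndufb9, Cox7c, Cox7b, Slc2a1, Higd2a, Itgad, Shmt2 and the marker genes were named after their values were seen. Alternatives were the set term left out or replaced by the title number, fewer sets, each library left out, no filter or a filter at 10, quantile or median scaling, a pseudocount of 5 and no trend or robust step. After the data were seen, 2 were added: leaving out the 2 libraries that stood apart, and set 3 against set 2 alone.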

Additional observations from a re-analysis of the deposited data

Results flagged for a closer look

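For 37 named members the highest and the lowest library of the 2 groups of 4 were compared with the rest of the group, 74 groups in all, of which chance marks about 1 in 20; 5 were marked because 1 library lay far from the other 3. In the Hsp70 group Cox5a, a subunit of complex IV, was lowest in set 5 at 8.45, against 9.07 to 9.12 in the other 3. Cox8b was highest in set 3 at 3.46, against 0 to 0.05. In the high glucose group Ndufa4l2 was highest in set 3 at 10.41, against 8.12 to 8.33, Sdhb was highest in set 2 at 11.08, against 10.75 to 10.78, and Ndufaf3 was lowest in set 4 at 7.34, against 7.58 to 7.6. Both marks of set 3 belong to the isoforms described above as higher in all 3 of its libraries.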

How the results depend on the processing

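The count of members called between groups was 0 in all 3 comparisons, with no replicate block (no file set term), with a replicate block by title number, and in every one of the 23 alternatives that give these comparisons. The median member difference of high minus normal glucose, -0.06, was 0.033 with the title block, -0.095 without the 2 libraries that stood apart, and -0.104 to -0.011 with each library left out. The median of Hsp70 minus high glucose (0.022) ran from -0.029 to 0.075 over those alternatives and that of Hsp70 minus normal glucose (-0.039) from -0.122 to 0.052, so none of the 3 medians kept its sign. The 11 members that differed among sets became 18 (19.8%) with quantile scaling, against 11.2% of all genes. Without the trend and robust step the count was 1 (1.1%), against 7.65%, and without the 2 libraries 53 (58.2%), against 33.8%. Of genes with a mean log2 value of at least 8, 47.4% were called without the 2 libraries. The member count was 0 without set 3, against 0.011%, and 0 in sets 4 and 5 alone, against 0%. With each library left out it was 1 to 40, where 3.36% to 28.5% of genes were called. The 8 that passed in set 3 became 25 (27.5%) without the 2 libraries. The share there was 19.8% of all genes and 24.8% of genes with a mean log2 value of at least 8. With each library left out the 8 became 3 to 14, where 5.29% to 20.8% of genes were called. Among named members, Ndufv1 passed in set 3 without Hsp70 replicate 3 (0.27, adjusted p = 0.0454), and Cox7a1 did not with sets 3, 4 and 5 only (1.63, adjusted p = 0.0593). No called member changed direction in the alternatives run. The causes were not tested. Limits: 3 or 4 libraries a group, with a median standard error of 0.135 to 0.151 for a single member, mean that differences of a gene near or below that size could not be detected, and larger ones may have been missed. Levels set across sets rest on files whose low values were handled differently.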
